A study of Mus musculus with 9 samples.

Results

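The 9 genes described here build the creatine and adenine nucleotide energy buffer of muscle: Ckm, Ckmt2, Ckb, Ak1, Ampd1, Ampd3, Slc6a8, Gamt and Gatm. They were taken by gene symbol from the 23284 genes of the deposited count table, and all 9 were found and passed the filter on low counts. The 4 knockout libraries came from mice whose genotype label reads Grpc6afl/fl;Mck-Cre, that is, a loxP-flanked Gprc6a gene together with a Cre recombinase driven by the Mck promoter. The 5 control libraries came from mice labelled Grpc6afl/fl, with the flanked gene and no Cre named; their titles call them wild type. All mice were 3 months old, on a 129/C57/BL6 background, and the gastrocnemius (calf) muscle was taken after exercise. No group carried Cre alone and none was unexercised, so Cre and the deletion cannot be told apart, and what exercise did cannot be read from these groups. Mck-Cre acts in striated muscle, and other cells of the tissue keep the receptor gene. The product of Gprc6a is a cell surface receptor that responds to amino acids and to osteocalcin, and the comparison asks which transcripts of exercised muscle differ when the gene is deleted in muscle fibres.

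Working muscle spends ATP faster than mitochondria can replace it, and 3 coupled reactions hold its level. Creatine kinase moves phosphate from phosphocreatine to ADP, adenylate kinase turns a pair of ADP molecules into ATP and AMP, and AMP deaminase removes that AMP as IMP. Creatine itself is made by the enzymes AGAT (gene Gatm) and GAMT (gene Gamt), mainly outside muscle, and enters the fibre through the transporter encoded by Slc6a8. Mck is the former symbol of Ckm, so the Cre of the knockout mice was driven by the promoter of a gene of this group. The creatine kinase genes differ in where they are active: Ckm in striated muscle, Ckb mainly in brain and other tissues. The 250 bases before the start of each, from RefSeq on GRCm38.p6, are shown for that reason, with each CANNTG (E-box) and each TATATAA on either strand in capitals. Which Ckm fragment the transgene carried is not given in the sources used here.
Ckm: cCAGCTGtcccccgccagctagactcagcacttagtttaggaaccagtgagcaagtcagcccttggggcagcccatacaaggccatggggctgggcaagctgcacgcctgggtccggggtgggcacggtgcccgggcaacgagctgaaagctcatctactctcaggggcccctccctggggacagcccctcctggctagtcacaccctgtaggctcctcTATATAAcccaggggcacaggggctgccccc
Ckb: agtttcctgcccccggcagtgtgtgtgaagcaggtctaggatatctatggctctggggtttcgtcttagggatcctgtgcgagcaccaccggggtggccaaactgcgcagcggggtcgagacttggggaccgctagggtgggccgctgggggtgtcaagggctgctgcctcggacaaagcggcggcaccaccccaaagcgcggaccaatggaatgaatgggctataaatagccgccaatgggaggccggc
The Ckm stretch lies on the plus strand at chr7:19410844-19411093 and the Ckb stretch on the minus strand at chr12:111672339-111672588. Ckm held 1 CANNTG and 1 TATATAA, and Ckb held 0 of either. Only these exact strings were counted. The Ckb stretch reads ctataaatag near its end, a similar run that the search did not cover, so the 0 does not separate the genes by such runs. Of 32851 promoter windows of this length, 66.2% held CANNTG and 3.04% held TATATAA. The descriptions of the knockout samples write Mck-/-, yet Ckm had between 569550 and 806080 counts in every knockout library, so the creatine kinase gene itself was expressed.

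Total counts per library ranged from 19522947 to 25608659. The libraries carried the markers of fast skeletal muscle: Acta1, the skeletal actin, ranged from 40069 to 53578 CPM in knockouts and from 34831 to 45570.5 CPM in controls, and all 8 fast fibre markers had counts in every library. CPM are counts scaled by TMM to a common library total of 1e6. Gprc6a had 0 counts in all 9 libraries, which allows at most 0.154 CPM in the shallowest, so the counts do not check the knockout label. Gprc5a, the gene that the knockout titles name, had 3.55 to 8.15 CPM in knockouts and 4.77 to 11.4 CPM in controls. Libraries differed in the balance of counts between short and long transcripts. The slope of log2 CPM on log2 transcript length, relative to the mean of all libraries, was -0.13 in knockout 3, -0.065 in knockout 4 and -0.12 in control 5, and between -0.0023 and 0.15 in the other libraries. These 3 libraries are called skewed to short transcripts below, which names the slope only. Whether the slopes came from the RNA, the library preparation or the tissue was not tested.

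None of the 9 energy buffer genes passed the test for a difference between knockout and control muscle. In edgeR's quasi-likelihood test, adjusted by Benjamini-Hochberg over 13198 tested genes, 0 of the 9 were higher and 0 lower, as were 0% of all tested genes in each direction. DESeq2, which called 0.0165% of its tested genes, and limma-voom, which called 0%, also called 0 of the 9. At an unadjusted p under 0.05, 2 of the 9 were higher and 0 lower in edgeR, against 3.24% of all tested genes in either direction, 1.43% higher and 1.8% lower. The pair were Ckb and Gamt. DESeq2 had 2 of the 9 under that value and limma-voom 1. In none of the 9 did the groups fail to overlap, where 0.811% of all tested genes had groups that did not overlap. The log2 fold changes, knockout minus control, ran from -0.19 to 0.40 with a median of 0.10 over the 9 genes and of -0.0021 over all tested genes. Of the 9, 7 were above 0, against 49.4% of all tested genes, and 5 of the 9 changed sign under some alternative. Whether the libraries come from separate animals is not labelled, so each p reflects the variation among these libraries, which may be technical.

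**Figure D1:**
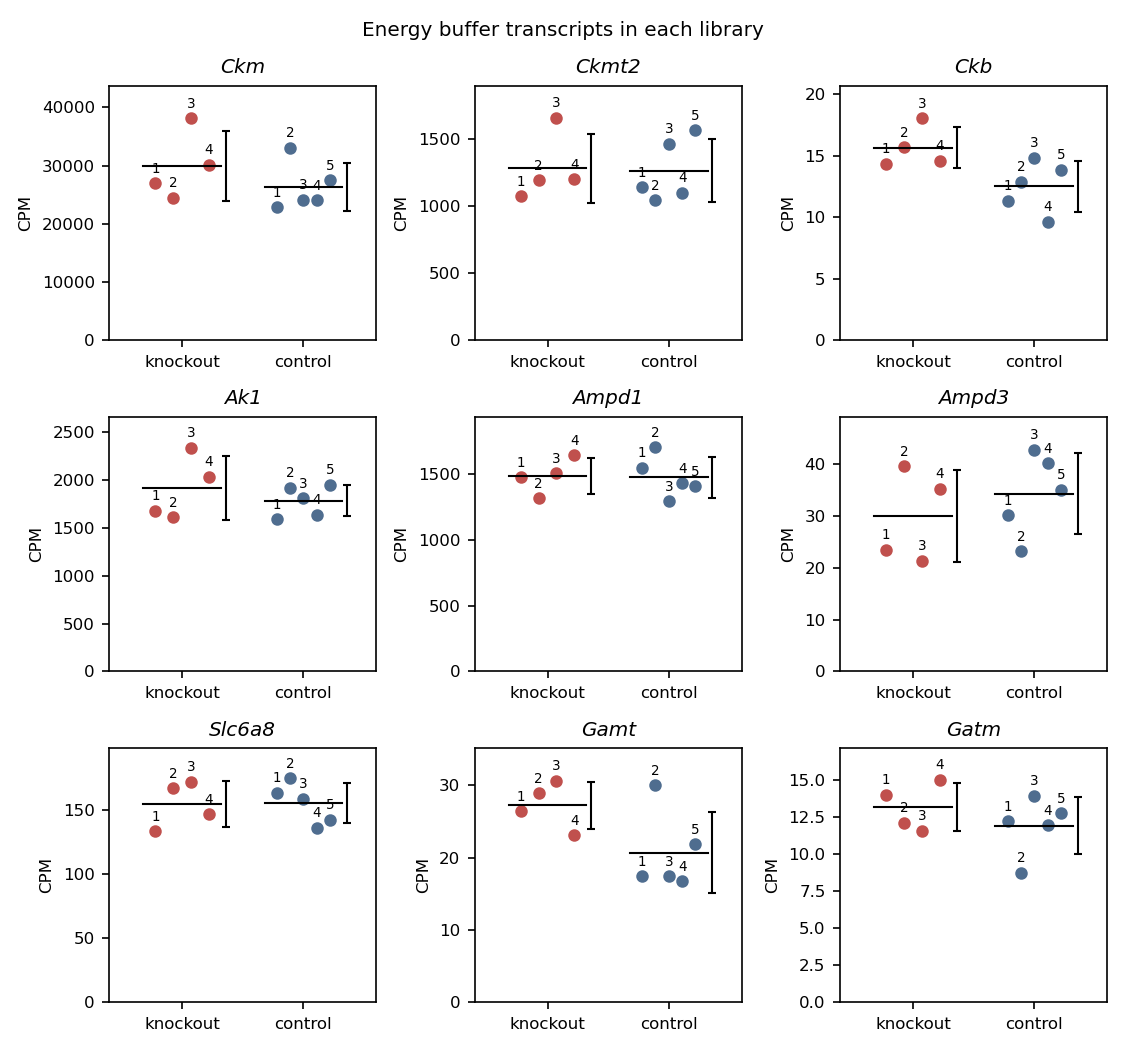
CPM of each energy buffer gene in the 4 knockout (red) and 5 control (blue) libraries, numbered as in the labels, each axis starting at 0. Horizontal lines are group means and error bars are SD; in every panel the groups overlap.

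Ckm, the cytosolic creatine kinase of muscle and the enzyme that regenerates ATP beside the myofibrils, was the most abundant of the 9 and ranked 4 among all genes of the table by its share of counts. It stood at 27037.5, 24471, 38199 and 30182 CPM in knockouts 1 to 4, against 22867, 33084.5, 24142, 24048 and 27485 CPM in controls 1 to 5. Knockout 3 was the highest library and control 2 the next, and every knockout library lay above the median of the controls, while the groups overlapped. It took 2.95% ± 0.413 of all counts in knockouts and 2.64% ± 0.337 in controls (SD, n = 4 and 5). The log2 fold change was 0.19 (SE 0.16, 95% interval -0.15 to 0.53, edgeR adjusted p = 0.966). That interval spans 0.898-fold to 1.44-fold, so differences within it were not excluded by these libraries. Its value was 0.048 without knockout 3, and -0.012 once the 3 libraries skewed to short transcripts were left out. In GENCODE M21, 10.8% of the 50-base words in Ckm transcripts also stood in other genes, most in A930016O22Rik, and reads of overlapping genes could not be told apart.

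Ckmt2, the sarcomeric mitochondrial creatine kinase that loads phosphocreatine at the mitochondrial membrane, averaged 1281 ± 259 CPM in knockouts and 1262 ± 235 CPM in controls (SD, n = 4 and 5). It stood at 1072, 1191, 1659 and 1200.4 CPM in knockouts 1 to 4, against 1142, 1043, 1465, 1100.1 and 1563 CPM in controls 1 to 5. Knockout 3, control 5 and control 3 were the high libraries, so high and low values occurred in both groups. On the log2 scale the difference was 0.021 (SE 0.16, 95% interval -0.33 to 0.37). It changed sign under several of the alternatives tried. The slow fibre markers, summed over 8 genes, were highest in knockout 2, control 3 and control 5, at 9092, 9834 and 8790.4 CPM, where the other libraries had 4589.5 to 6709.95 CPM; their part in the level of Ckmt2 was not tested.

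Ckb, the creatine kinase of brain and many non-muscle cells, was scarce in these libraries, and knockout libraries stood above most controls. It had 14.3, 15.7, 18.01 and 14.6 CPM in knockouts 1 to 4, against 11.3, 12.9, 14.8, 9.62 and 13.9 CPM in controls 1 to 5. All 4 knockout libraries lay above the control median and 2 of them above every control, with control 3 as the library that made the groups overlap. The mean was 15.6 ± 1.68 CPM in knockouts and 12.5 ± 2.06 CPM in controls (SD, n = 4 and 5). The log2 fold change was 0.32 (SE 0.14, 95% interval 0.024 to 0.62), with an unadjusted p of 0.0363 and an adjusted p of 0.966 in edgeR. Its direction was the same in 23 of 23 alternatives, with values from 0.24 to 0.39, and the unadjusted p stayed under 0.05 in 15 of them. Since these are bulk samples, more cells of a type and more RNA per cell cannot be told apart. Of other cell types, the 6 endothelial markers summed to 277 to 292 CPM in knockouts and 255 to 266 CPM in controls. The groups did not overlap in that sum, but they overlapped in each of the 6 markers. It was the only such sum among the 11 marker lists examined. Of all single tested genes, 0.811% had groups that did not overlap. Pecam1 stood at 0.061, Cdh5 at 0.11, Tek at 0.13, Emcn at 0.15, Tie1 at 0.18 and Kdr at 0.27 on the log2 scale, knockout minus control. The lowest unadjusted p among them was 0.101 (Tie1, edgeR). The 6 smooth muscle markers summed to 4559 to 5833 CPM in knockouts and 4076 to 5185 CPM in controls, but most of that sum was Des, which muscle fibres also express, at 4085 to 5376 CPM in knockouts and 3637 to 4682 CPM in controls. Of the others, Acta2 stood at 0.019, Tagln at -0.0027, Myh11 at -0.15, Cnn1 at -0.43 and Smtn at 0.17 on the log2 scale, knockout minus control. The 6 Schwann cell markers summed to 281 to 474 CPM in knockouts and 183 to 501 CPM in controls. Every one of these markers had counts in every library, and their part in the Ckb difference was not tested. Of the 50-base words of Ckb transcripts, 9.98% also stood in other genes, most in Gm12892.

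The proportions among these creatine kinases differed by less than the spread between controls. Per kilobase of transcript, Ckm made up 94.5% ± 0.513 of the 3 transcripts in knockouts and 93.8% ± 1.36 in controls (SD, n = 4 and 5). Ckmt2 made up 5.42% ± 0.506 in knockouts and 6.13% ± 1.35 in controls, and Ckb 0.0678% ± 0.00949 in knockouts and 0.0608% ± 0.0108 in controls. Those shares use the median transcript length. By it the lowest Ckm share was 92.4%, in control 3, and by the longest transcript that library had 89.8%. The other mitochondrial isoform, Ckmt1, known from brain and epithelia, did not pass the filter on low counts: 6, 22, 3 and 3 counts were found in knockouts 1 to 4 and 3, 32, 1, 0 and 2 counts in controls 1 to 5. Knockout 2 and control 2 held most of them. These same libraries were highest in keratinocyte markers, at 101 and 169.8 CPM summed over 5 genes, of which 1 had counts in every library, where the others had 3.67 to 37.4 CPM; the part of those cells was not tested.

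The genes that supply creatine stood below Ckm and Ckmt2 per kilobase, though Slc6a8 and Gamt stood above Ckb. Slc6a8, the creatine transporter of the cell membrane, had 134, 167, 172 and 147 CPM in knockouts 1 to 4, against 164, 175, 159, 137 and 143 CPM in controls 1 to 5. High and low libraries occurred in both groups, and all 4 knockouts lay within the range of the controls except knockout 1, the lowest library. On the log2 scale the difference was -0.0052 (SE 0.11, 95% interval -0.24 to 0.23), which spans 0.846-fold to 1.17-fold.

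Gamt, the methyltransferase of the second step of creatine synthesis, had the largest log2 fold change of the 9. It had 26.4, 28.9, 30.6 and 23.1 CPM in knockouts 1 to 4, against 17.4, 30.01, 17.4, 16.7 and 21.9 CPM in controls 1 to 5. All 4 knockouts stood above 4 of the controls, and control 2 stood among the knockouts. The mean was 27.3 ± 3.26 CPM in knockouts and 20.7 ± 5.60 CPM in controls (SD, n = 4 and 5). The log2 fold change was 0.40 (SE 0.17, 95% interval 0.018 to 0.78), with an unadjusted p of 0.0414 and an adjusted p of 0.966 in edgeR. Without control 2 it was 0.57 (unadjusted p = 0.00102, adjusted p = 0.538), and over 23 alternatives it lay between 0.33 and 0.57 with adjusted p from 0.388 to 0.999992 and an unadjusted p under 0.05 in 13. Leaving out the 3 libraries skewed to short transcripts gave 0.44 (unadjusted p = 0.0943). With the length slope as a covariate Gamt stood at 0.34 (unadjusted p = 0.0807, edgeR). Gamt also had the shortest transcripts of the 9, with a median of 983.5 bases. Its correlation with the length slope over the 9 libraries was -0.48. Ckm, Ckmt2, Ckb and Ak1 had -0.68 to -0.89, and Ampd1, Ampd3, Slc6a8 and Gatm had -0.076 to 0.24.

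Gatm, the amidinotransferase of the first step of creatine synthesis, was the scarcest of the 9 per kilobase. It had 13.995, 12.1, 11.6 and 15.0 CPM in knockouts 1 to 4, against 12.2, 8.74, 13.9, 11.9 and 12.8 CPM in controls 1 to 5. Knockouts 1 and 4 were above every control, and control 2 was the lowest library. Its log2 fold change was 0.14 (SE 0.14, 95% interval -0.17 to 0.46), and 0.051 without control 2. Control 2 was thus the highest control for Gamt and the lowest for Gatm, and its ratio of Gamt to Gatm CPM was 3.44, against 1.25 to 1.71 in the other controls and 1.54 to 2.65 in knockouts. The 9 adipocyte markers summed to 796 to 1006 CPM in knockouts, against 717, 927, 1164, 2619 and 2097 CPM in controls 1 to 5. Scd1 was the largest part of the sum in controls 4 and 5, at 1359 and 858 CPM, against 201 to 278 CPM in knockouts. Adipoq was also highest there, at 62.5 and 56.7 CPM, against 14.9 to 25.5 CPM in knockouts. Without controls 4 and 5, the libraries richest in these markers, Gamt stood at 0.35 and Ckb at 0.28 on the log2 scale. Neither had an unadjusted p under 0.05 in that edgeR fit (0.109 for Gamt and 0.0826 for Ckb).

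**Figure D2:**
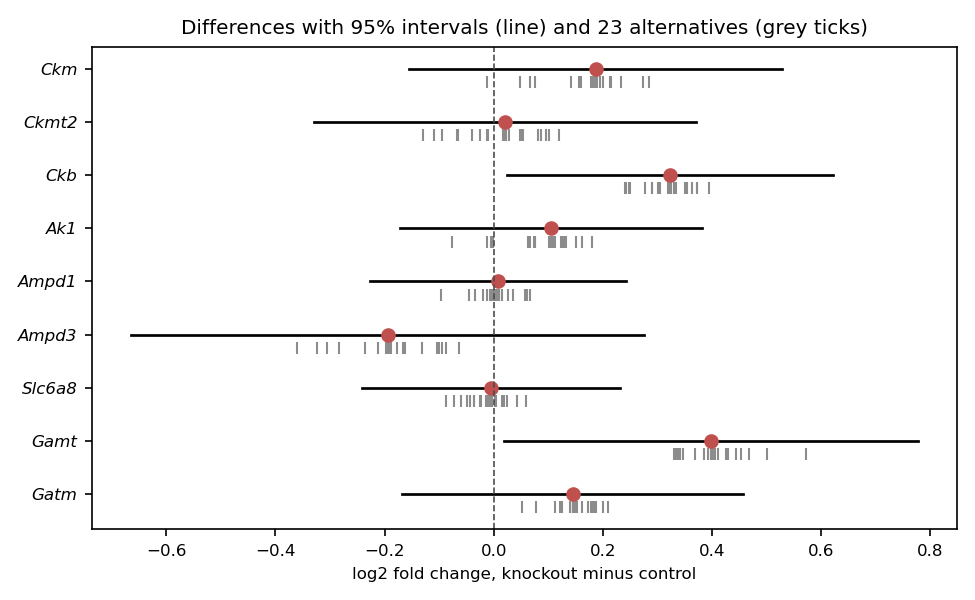
Log2 fold change, knockout minus control, of each energy buffer gene (red point) with its 95% interval (black line) and the values under 23 alternatives (grey ticks). The intervals of Ckb and Gamt lie above 0 before adjustment for 13198 genes, and the intervals of the other 7 genes include 0.

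The adenine nucleotide enzymes of the fibre, Ak1 and Ampd1, were abundant in both groups. Ak1, the cytosolic adenylate kinase of muscle, averaged 1915 ± 337 CPM in knockouts and 1781 ± 162 CPM in controls (SD, n = 4 and 5). It had 1678, 1609, 2335 and 2036 CPM in knockouts 1 to 4, against 1592, 1917, 1807, 1636.5 and 1951 CPM in controls 1 to 5. The groups overlapped. Its highest levels were those of knockout 3, knockout 4 and control 5, the 3 libraries skewed to short transcripts, and its lowest that of control 1, the library with the steepest slope toward long ones. The log2 fold change was 0.10 (SE 0.13, 95% interval -0.17 to 0.38), and it was -0.00091 with the length slope as a covariate. Without those 3 libraries it was -0.077.

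Ampd1, the AMP deaminase of skeletal muscle, had 1472, 1314, 1502 and 1642 CPM in knockouts 1 to 4, against 1546, 1703, 1293, 1426 and 1404 CPM in controls 1 to 5. The range of the knockouts lay wholly within that of the controls. Its log2 fold change was 0.0078 (SE 0.11, 95% interval -0.23 to 0.24), which spans 0.855-fold to 1.18-fold. Ampd3, the isoform known from red blood cells and from muscle that is wasting, had 23.5, 39.6, 21.4 and 35.3 CPM in knockouts 1 to 4, against 30.2, 23.2, 42.8, 40.1 and 35.1 CPM in controls 1 to 5. Its coefficient of variation was 29.7% in knockouts, the highest of the 9 there, and 22.9% in controls, where that of Gamt was higher at 27.1%, and low libraries occurred in both groups. Its log2 fold change was -0.19 (SE 0.21, 95% interval -0.66 to 0.28), and -0.36 without knockout 2 and -0.064 without knockout 3. Beta-s, a haemoglobin gene, was highest in knockouts 3 and 4, with 335 and 127 CPM, where all other libraries had 49.3 to 68.6 CPM, and knockout 3 was the lowest library for Ampd3. Of the 50-base words of Ampd3 transcripts, 5.28% also stood in other genes, most in Rnf141.

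Among the AMP deaminases, the muscle isoform prevailed in every library. Per kilobase, Ampd1 made up 98.3% ± 0.548 of Ampd1, Ampd2 and Ampd3 together in knockouts and 98.0% ± 0.578 in controls (SD, n = 4 and 5). Ampd3 made up 1.53% ± 0.527 in knockouts and 1.78% ± 0.553 in controls. Its share was lowest in control 2, at 1.03%, and highest in control 3, at 2.45%, so the extremes were both controls.

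**Figure D3:**
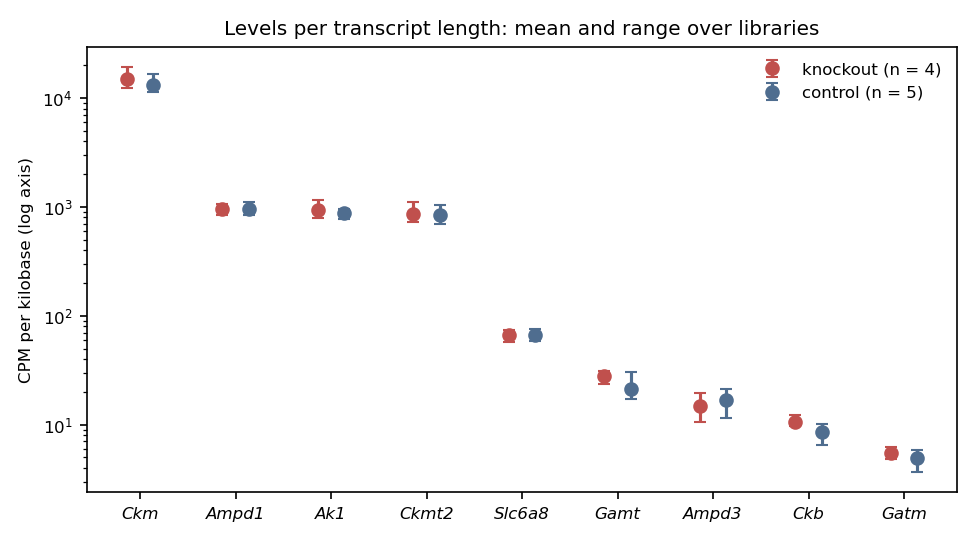
CPM per kilobase of the median protein-coding transcript (log axis) for the 9 genes, as mean and range over 4 knockout (red) and 5 control (blue) libraries. Ckm stands highest, Ampd1, Ak1 and Ckmt2 overlap below it, and Slc6a8, Gamt, Ampd3, Ckb and Gatm follow.

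Levels between genes were compared only per kilobase of the median protein-coding transcript in GENCODE M21. Ckm averaged 15073 CPM per kilobase in knockouts and 13239 in controls. Ampd1, Ak1 and Ckmt2 followed, at 959, 941 and 862 CPM per kilobase in knockouts and 953, 875 and 849.6 in controls, and their ranges overlapped, so no order among them could be given. Slc6a8 came next, at 66.5 in knockouts and 66.8 in controls. Gamt had 27.7 in knockouts and 21.0 in controls, Ampd3 had 14.7 in knockouts and 16.9 in controls, and Ckb had 10.6 in knockouts and 8.49 in controls, each overlapping its neighbour in the order. Gatm was lowest, at 5.51 CPM per kilobase in knockouts and 4.99 in controls. With the longest transcript in place of the median, Ampd1 stood at 509 in knockouts and 506 in controls, below Ak1 and Ckmt2, Slc6a8 at 39.1 in knockouts and 39.2 in controls, at the same place in the order, and Ampd3 at 7.32 in knockouts and 8.37 in controls, below Ckb.

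**Figure D4:**
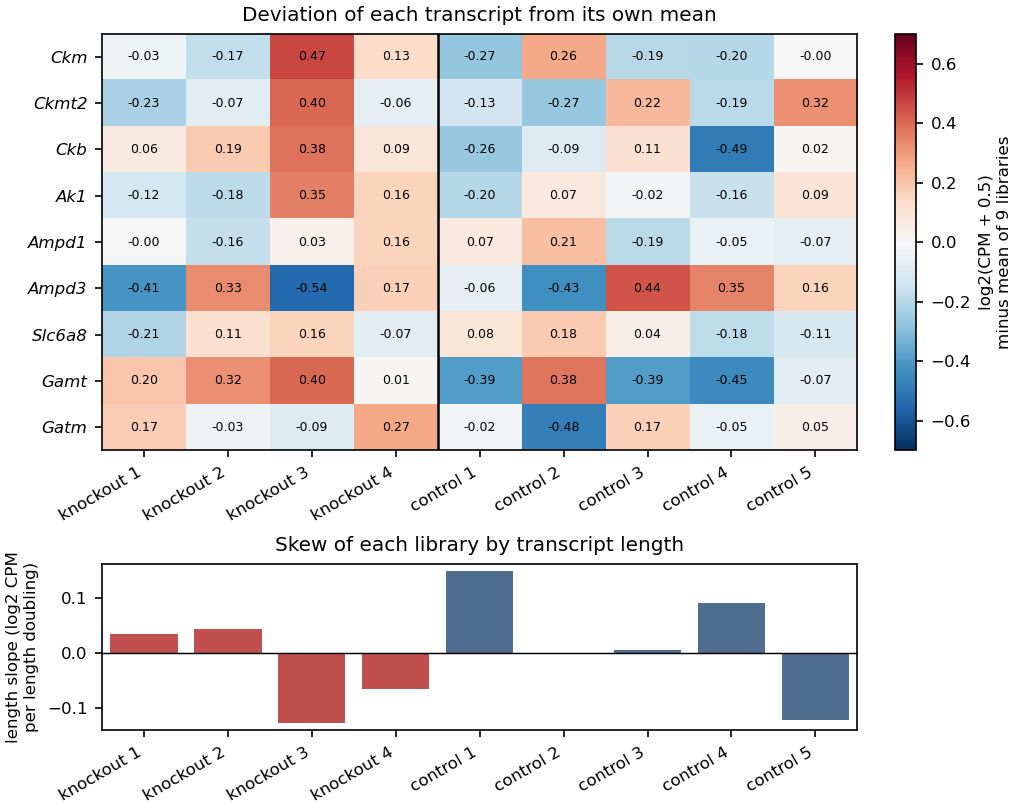
Deviation of log2(CPM + 0.5) of each gene from its own mean over 9 libraries (upper panel, red above and blue below), with knockouts left of the line, and the transcript length slope of each library (lower panel, in log2 CPM per doubling of length). Knockout 3 is the highest library for Ckm, Ckmt2, Ckb, Ak1 and Gamt and the lowest for Ampd3.

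The 9 genes did not vary as a block across libraries. Knockout 3 was the highest library for Ckm, Ckmt2, Ckb, Ak1 and Gamt, at 0.35 to 0.47 above their own means on the log2(CPM + 0.5) scale, and the lowest for Ampd3, at -0.54. Control 2 was high for Ckm and Gamt, at 0.26 and 0.38, and low for Ampd3 and Gatm, at -0.43 and -0.48. Control 4 was the lowest library for Ckb and Gamt, at -0.49 and -0.45. Ampd1 and Slc6a8 varied least, from -0.19 to 0.21 and from -0.21 to 0.18.

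The genes whose pattern over the 9 libraries was most like that of each member were taken by Pearson's r of log2(CPM + 0.5) among 7664 tested genes with a mean of at least 10 CPM, as a description only: such a search over many genes and few libraries finds high values by construction, and the genes share depth, scaling and length skew. Klhl21 (r = 0.989) and Abcf1 (r = 0.981) were most like Ckm, Sae1 (r = 0.984) and 2410001C21Rik (r = 0.983) most like Ak1, and Wfs1 (r = 0.971) and Ucp2 (r = 0.951) most like Ckmt2. Entpd2 (r = 0.948) and Eln (r = 0.935) were most like Ckb. Fhod1 (r = 0.960) and Usp4 (r = 0.957) were most like Gamt, and Tardbp (r = 0.928) and Atp2a3 (r = 0.903) most like Gatm. Anapc5 (r = 0.962) and Tmem5 (r = 0.959) were most like Ampd1, Rnf115 (r = 0.950) and Npr3 (r = 0.943) most like Ampd3, and Pja1 (r = 0.904) and AW555464 (r = 0.900) most like Slc6a8.

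No gene of the wider pathway passed the test. Of 49 other listed genes of creatine and purine nucleotide metabolism, 47 were in the table and 43 were tested. By edgeR 0 were higher and 0 lower, and the median log2 fold change was 0.011. Of the 43, 25 were above 0, against 49.4% of all tested genes. At an unadjusted p under 0.05 there was 1 of the 43, or 2.33%, against 3.24% of all tested genes. It was Nme4, the mitochondrial nucleoside diphosphate kinase, which had 3.89, 2.48, 4.03 and 2.76 CPM in knockouts 1 to 4 and 2.18, 3.03, 2.68, 1.72 and 2.04 CPM in controls 1 to 5. Knockouts 1 and 3 were above every control, and the groups overlapped (log2 fold change 0.49, SE 0.21, unadjusted p = 0.0429, adjusted p = 0.966, edgeR).

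The 7 tested nucleoside diphosphate and guanylate kinases all stood above 0, from 0.0045 to 0.49 with a median of 0.12, where 49.4% of all tested genes stood above 0. That direction did not hold under every alternative for each gene: with 1 surrogate variable Nme1 stood at -0.21, Nme2 at -0.096 and Guk1 at -0.0024, Nme7 stood at -0.20 without knockout 4, and Nme3 at -0.052 without control 5 and knockouts 3 and 4. The adenylosuccinate enzymes form the purine nucleotide cycle with AMP deaminase. Adssl1, the muscle synthetase, averaged 1097 ± 145 CPM in knockouts and 1053 ± 100.3 CPM in controls, and Adsl, the lyase, averaged 139.8 ± 5.18 CPM in knockouts and 139.5 ± 3.43 CPM in controls (SD, n = 4 and 5). Adss, the other synthetase, averaged 11.2 CPM in knockouts and 12.4 CPM in controls (log2 fold change -0.14, SE 0.14). Of the 8 tested genes of that cycle and of AMP breakdown, 3 were above 0, the median was -0.084, and Nt5e, which dephosphorylates AMP outside the cell, had the smallest p (log2 fold change -0.35, SE 0.18). Nt5c1a, which dephosphorylates AMP inside the fibre, lay farthest from 0 of the pathway genes, with 3.97, 3.20, 1.71 and 1.75 CPM in knockouts 1 to 4 and 10.9, 4.57, 2.17, 6.94 and 0.548 CPM in controls 1 to 5. The controls held both its highest and its lowest library, and its log2 fold change was -0.90 (SE 0.62), between -1.17 and -0.012 over 24 alternatives. The 4 tested adenylate kinases other than Ak1 had a median of -0.059, and the mitochondrial Ak3 had the smallest p at -0.12 (SE 0.10).

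Genes of purine salvage and disposal had a median of 0.054 over 7 tested genes, with Ada, adenosine deaminase, at 0.51 (SE 0.26) and a level of 0.922 ± 0.168 CPM in knockouts and 0.636 ± 0.173 CPM in controls. The 10 genes of purine synthesis had a median of -0.0011, with Ppat, the first committed enzyme, at -0.24 (SE 0.11). The 6 genes that exchange ATP, ADP and phosphate across the mitochondrial membranes had a median of 0.022. Among them Slc25a4, the ATP and ADP carrier of muscle, averaged 4189 ± 489.9 CPM in knockouts and 4099 ± 435 CPM in controls, and Slc25a5, the carrier of most other cells, was at -0.16 (SE 0.12). Slc16a12, a creatine transporter known from kidney and eye, stood at 0.740 ± 0.190 CPM in knockouts and 0.822 ± 0.404 CPM in controls (log2 fold change -0.15, SE 0.35). None of these genes passed the threshold.

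**Figure D5:**
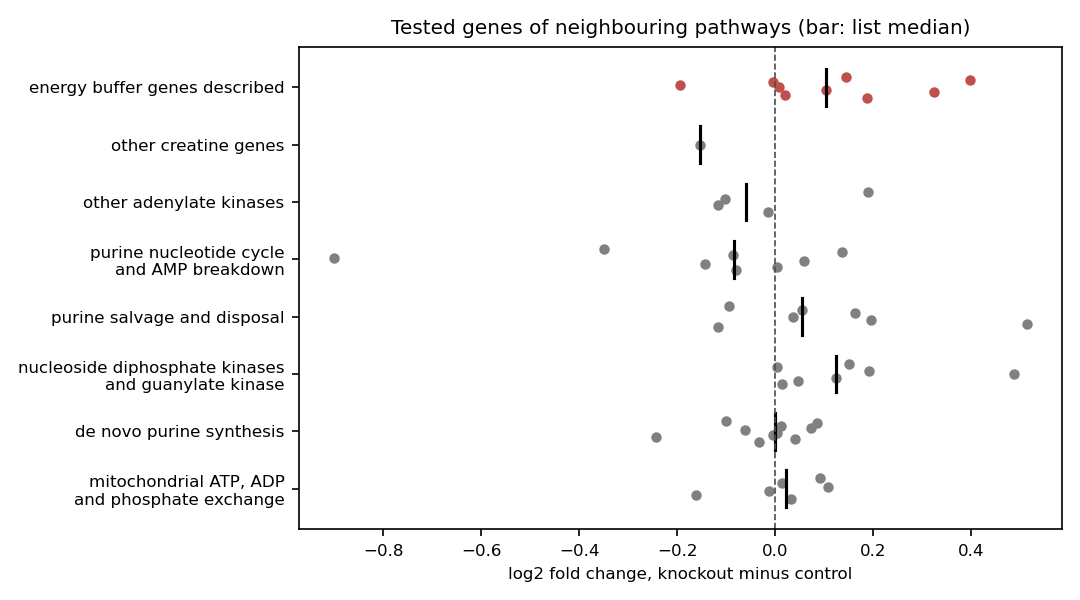
Log2 fold change, knockout minus control, of every tested gene in the energy buffer group (red) and in 7 lists of neighbouring pathways (grey), with black bars at the list medians. Medians lie between -0.15 and 0.12, and no gene passed the adjusted threshold.

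As for the other cell types these libraries could hold, fast fibre markers summed to 128086 to 163370 CPM in knockouts and 123598 to 171397 CPM in controls. The erythroid markers summed to 68.2 to 368 CPM in knockouts and 54.0 to 77.3 CPM in controls, with 6 of 7 listed symbols in the table and Hemgn at 0 in every library. The 4 brown adipocyte markers summed to 266 to 398 CPM in knockouts and 225 to 489.9 CPM in controls, and most of that sum was Cox8b, at 262 to 396 CPM in knockouts and 222 to 469.8 CPM in controls. Ucp1, which defines brown fat, had 0.0948 to 0.691 CPM in knockouts, against 16.6 CPM in control 4, 7.03 CPM in control 5 and 0.233 to 0.607 CPM in the other controls. Cidea had 0.995 to 1.98 CPM in knockouts, against 18.4 CPM in control 4, 10.3 CPM in control 5 and 1.38 to 2.02 CPM in the other controls. The 6 fibroblast markers summed to 1717 to 3740.2 CPM in knockouts and 1949 to 3018 CPM in controls. Their log2 fold changes, knockout minus control, were 0.021 for Dcn, 0.089 for Lum and 0.22 for Pdgfra. Those of Col1a2, Col1a1 and Col3a1 were 0.29, 0.42 and 0.51. The 6 macrophage markers summed to 109 to 146 CPM in knockouts and 105 to 141 CPM in controls. Their log2 fold changes were -0.61 for Cd14, -0.0032 for Cd68, 0.068 for Mrc1, 0.099 for Csf1r, 0.15 for Lyz2 and 0.24 for Emr1. In edgeR the unadjusted p was 0.0125 for Col3a1 and 0.0291 for Cd14, with an adjusted p of 0.966 for each. The groups overlapped in the sum of each of these 5 lists, and their part in the energy buffer values was not tested.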

How the data were processed

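Messenger RNA of exercised gastrocnemius was sequenced in 4 knockout and 5 control libraries. Per the labels' protocols, RNA had integrity numbers of 6.7 or more and was amplified with a NuGEN Ovation kit. The authors deposited raw read counts per gene symbol. They used TopHat, HTSeq 0.6.1, Bowtie 0.12.7 and bcl2fastq 1.8.4 with mm9, per the submitters' processing notes. Annotation and strand setting: not given in the sources used here.

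Counts were tested in R 4.3.3 with edgeR 4.0.16: filterByExpr (minimum count 10), TMM, glmQLFit (robust) and glmQLFTest, with Benjamini-Hochberg adjustment over all tested genes and a threshold of 0.05. SE was taken as the size of the log2 fold change over the square root of F. Alternatives used DESeq2 1.42.0, limma 3.58.1 and sva 3.50.0. The steps were tested on simulated counts. Levels per kilobase and the length slope used transcripts of GENCODE M21 (GRCm38), which matched 97.9% of symbols, for names and lengths only. Promoters came from a RefSeq table that held 7 of the 9 genes. Of 131 listed symbols, 128 were found. Named pathway genes were those with an unadjusted p under 0.05 or else the 1 of smallest p in each list, and Adssl1, Adsl, Adss, Nt5c1a, Slc25a4 and single marker genes were named after their values were seen. The genes and lists were chosen with earlier results of these data known. Intervals and limits cover the spread between libraries or counting error only. No pair of libraries within a group agreed within sampling noise (chi-square over its degrees of freedom, 17.7 to 98.3).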

Additional observations from a re-analysis of the deposited data

How the results depend on the processing

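With other scalings, filters, tools, thresholds and left-out libraries, 24 alternatives in all, 0 of the 9 energy buffer genes passed. Over all genes DESeq2 called 3, all lower (Dnajb1, Fosb and Has1), and a replicate block on the label number called 1, also lower (Fosb), while edgeR without it called 0. Samples of number 1 deviated together (correlation 0.42), while those of numbers 2 to 4 hardly did (0.037, 0.081 and -0.067). Knockout 1 alone correlated best with its own number, so the numbers were not taken as pairs. With the block, 1454 genes had an unadjusted p under 0.05 in edgeR, against 427 without it. Ckb then had an unadjusted p of 0.00945 (adjusted p = 0.367) and Gamt 0.0149 (adjusted p = 0.388, edgeR). Of 207 log2 fold changes of the 9 genes under alternatives, 179 kept their direction, and 28 had the other sign, none above 0.13 in size. Without control 5 and knockouts 3 and 4 the values were -0.012 for Ckm, -0.066 for Ckmt2, -0.077 for Ak1 and -0.096 for Ampd1. With 1 surrogate variable they were -0.11 for Ckmt2 and -0.011 for Ak1, and with the length slope as covariate -0.095 and -0.00091. With library totals only they were -0.011 for Ckmt2 and -0.013 for Ampd1. Limma-voom gave -0.067 for Ckmt2, the replicate block -0.0063 for Ampd1, and the fit without controls 4 and 5 -0.020 for Ampd1. Slc6a8 stood at 0.024 with upper quartile scaling and at 0.0028 with the 20 most abundant genes and Rn45s left out of the scaling. With 1 library left out at a time, Ckmt2 ranged from -0.13 to 0.12, Ak1 from -0.0058 to 0.18, Ampd1 from -0.046 to 0.066 and Slc6a8 from -0.061 to 0.059. Ckb, Gamt, Gatm and Ampd3 kept their direction in 23 of 23 alternatives each. The cause of the changed signs was not tested. The legacy quasi-likelihood fit was added after seeing the data and kept every direction.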
